A study of Mus musculus with 8 samples.

Results

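The mammalian circadian clock was followed here through 10 of its core genes, namely Arntl (also written Bmal1), Clock, Npas2, Per1, Per2, Per3, Cry1, Cry2, Nr1d1 and Dbp. They were taken by name from the 54532 genes listed for the corneal transcriptome, all 10 were found, and all 10 were above the filter on low values that left 25402 genes for testing. Their levels were measured in naive (untreated) corneas of male mice of 2 inbred strains, 4 corneas of the low-lymphangiogenic strain BALB/cN (labelled Balb/c) and 4 of the high-lymphangiogenic strain C57BL/6N, with no allele or agent added to either. The labels do not say whether each cornea came from its own mouse, so p-values measure only the spread between these samples. The time of day at which the corneas were taken is not given in the sources used here, so strain and time of collection cannot be told apart in any difference between the groups. The question was whether the clock genes stood at different levels in the 2 strains, and whether they varied together between corneas of 1 strain.

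In this clock, BMAL1, the product of Arntl, pairs with CLOCK or its relative NPAS2 and activates genes through E-box elements in DNA. The period (PER) and cryptochrome (CRY) proteins made from such genes return to the nucleus and repress that activation, which closes a loop that takes about a day. In a further loop NR1D1 (REV-ERB alpha), itself made under E-box control, represses Arntl, while DBP carries the rhythm to output genes through D-box elements. In many mouse tissues transcripts of the activators Arntl, Clock and Npas2 peak at the opposite time of day from those of Nr1d1, Dbp and the Per genes. The cornea is known for a daily rhythm of cell division in its epithelium.

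The elements named above can be read in the promoter windows of the members, which ran from 250 bases before to 50 bases after each annotated start in RefSeq (GRCm38.p6). Windows were found for 9 of the 10 genes, all but Per2. Both strands were searched for the E-box CACGTG, an E-box-like element and the D-box TTANGTAA. The E-box-like element is written CACGTT on 1 strand and, when read along the other strand, AACGTG. The search also covered AGGTCA, read as TGACCT along the other strand and called the AGGTCA element here. This run of letters is only the core of the element bound by NR1D1 and the ROR receptors. The bases beside it were not searched. None of the elements searched for overlapped another in the windows shown. In the lines that follow, the strand of the gene is read 5′ to 3′ and the elements are in capitals.
Per1 (chr11:69098772-69098828, plus strand, E-box 166 and AGGTCA element 137 bases before the start): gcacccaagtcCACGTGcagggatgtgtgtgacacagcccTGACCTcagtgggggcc
Cry1 (chr10:85185098-85185144, minus strand, E-box-like element 79 and E-box 60 bases before the start): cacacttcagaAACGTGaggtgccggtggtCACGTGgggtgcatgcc
Cry2 (chr2:92434219-92434246, minus strand, E-box-like element 166 bases before the start): cacatggtgggAACGTGagggggcggag
Nr1d1 (chr11:98775389-98775416, minus strand, E-box-like element 28 bases before the start): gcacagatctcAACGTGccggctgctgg
Per3 (chr4:151044805-151044881, minus strand, D-boxes 205 and 158 bases before the start): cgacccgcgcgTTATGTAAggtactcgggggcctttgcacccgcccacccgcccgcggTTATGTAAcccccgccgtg
Arntl (chr7:113207531-113207558, plus strand, AGGTCA element 31 bases after the start of 1 of 2 windows): aggcagaaagtAGGTCAgggacggaggt
Clock (chr5:76303605-76303632, minus strand, AGGTCA element 119 bases before the start of 1 of 3 windows): gctttggcctcTGACCTgacagatgaca
These lines are shown because the members are tied to each other through such elements. The E-box was present in 7.15% of all 32851 promoter windows, the E-box-like element in 4.68%, the D-box in 2.32% and the AGGTCA element in 16.3%. The single windows of Npas2 and Dbp held none of the 4 sets of letters. Per1 had 2 windows, and only the 1 shown held any of them. A match is only a run of letters, and the binding of a factor was not measured.

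Levels are rlog values, that is, counts of reads per gene that were put on a log2 scale by DESeq2 after scaling for library size and shrinking of noisy low counts. A difference of 1 therefore stands for 2-fold at most genes, and differences of low genes are understated. No read counts were used here, so the depth behind each value is unknown. Strains were compared with limma over all 25402 genes, a difference is always BALB/cN minus C57BL/6N, and genes were called where the adjusted p did not exceed 0.01.

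In BALB/cN corneas the 3 activators stood lower and the repressors and outputs Per2, Cry2 and Dbp stood higher than in C57BL/6N corneas, by between 1.52-fold and 2.22-fold. In all, 6 of the 10 members were called, 3 lower and 3 higher. The share called among all genes was 5.74% in either direction, 2.83% higher and 2.91% lower in BALB/cN. The other 4 members, Per1, Per3, Cry1 and Nr1d1, did not pass. In every one of the 10 genes the 4 corneas of one strain lay on one side of the 4 corneas of the other, which was the case for 18.3% of all genes tested. The exact two-sided permutation p of each member was 0.0286, the smallest that 4 corneas against 4 can give. The members went both ways, 6 higher and 4 lower, and the median size of their differences was 0.70 against 0.09 for all genes. All genes include low ones, whose differences are shrunk, while each member averaged 8.34 or more, so these sizes are not like for like. With the filter raised to log2 of 10, 6 members and 1557 of 18762 genes were called (limma). When p-values were recalibrated to an empirical null, with a standard deviation of 1.67 fitted to the same data, none of the 10 members and none of all genes was called (limma), although 6 members and 1730 of all genes (6.81%) still had an unadjusted p under 0.05.

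**Figure D1:**
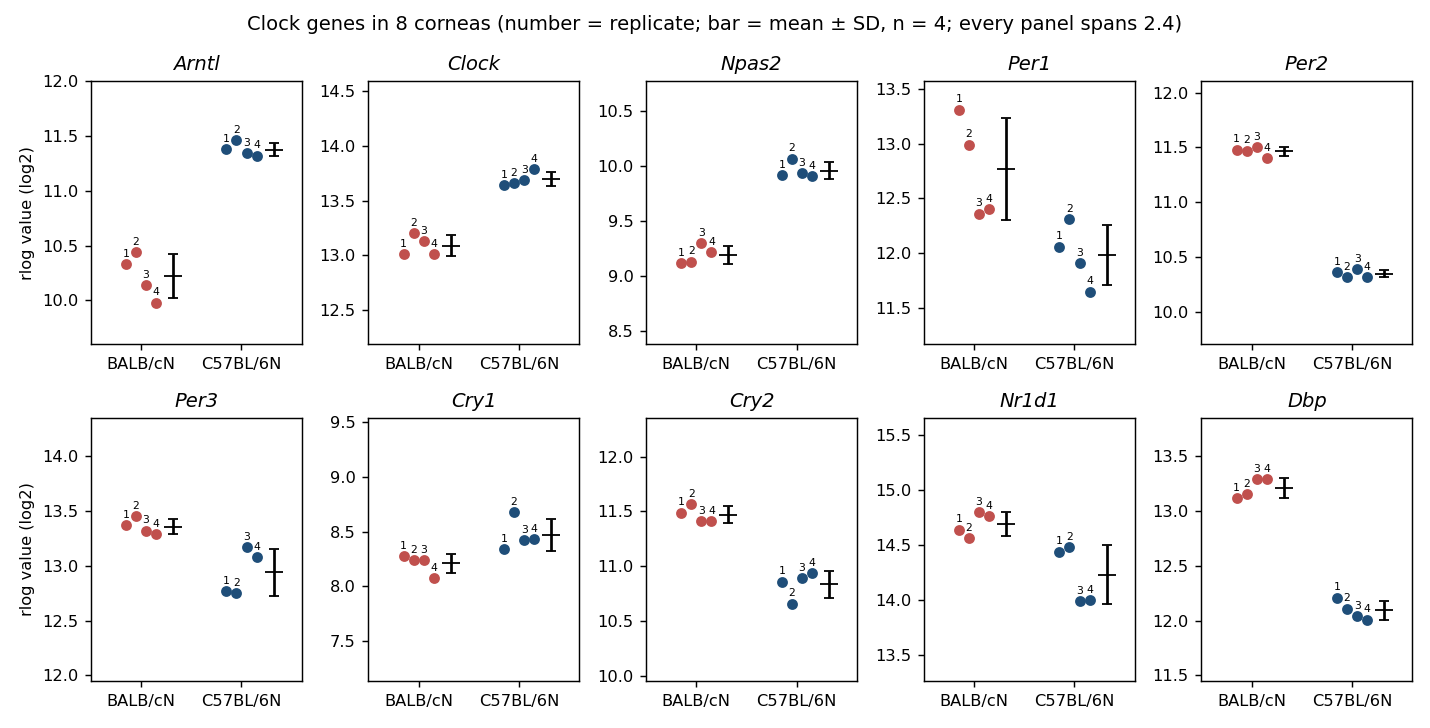
The rlog value (log2) of each clock gene in each cornea, with the replicate number above each point and the mean ± SD of 4 corneas beside them. In every panel the BALB/cN corneas (red) and the C57BL/6N corneas (blue) do not overlap; Arntl, Clock, Npas2 and Cry1 lie lower and the other 6 genes higher in BALB/cN.

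Among the activators, Arntl (ENSMUSG00000055116, GRCm38 chr7:113207465-113314126) encodes BMAL1, the main partner of CLOCK and NPAS2. Its values in BALB/cN replicates 1 to 4 were 10.33, 10.44, 10.14 and 9.98, and those in C57BL/6N replicates 1 to 4 were 11.38, 11.46, 11.34 and 11.32. The BALB/cN corneas were all lower and also more spread out, with 10.22 ± 0.20 against 11.38 ± 0.064 (SD, n = 4). The difference was -1.15 (SE 0.0952, adjusted p = 5.18e-05 by limma), or 2.22-fold lower in BALB/cN. Only 33 bases of Arntl's exons, 0.439% of their length, were shared with an antisense gene, which itself had a mean rlog value of -0.26.

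Clock (ENSMUSG00000029238, chr5:76209868-76304792), the DNA-binding partner of BMAL1, had values of 13.01, 13.20, 13.13 and 13.01 in BALB/cN and of 13.64, 13.66, 13.69 and 13.79 in C57BL/6N. Clock was lower in all BALB/cN corneas, the means being 13.09 ± 0.094 and 13.69 ± 0.065 (SD, n = 4). This gave a difference of -0.61 (SE 0.0579, adjusted p = 0.000134 by limma), or 1.52-fold. Npas2 (ENSMUSG00000026077, chr1:39193731-39363236), which can stand in for Clock, was at 9.12, 9.13, 9.30 and 9.22 in BALB/cN against 9.92, 10.07, 9.94 and 9.91 in C57BL/6N. It was thus lower in all BALB/cN corneas, at 9.19 ± 0.085 against 9.96 ± 0.072 (SD, n = 4). The difference of -0.77 (SE 0.066, adjusted p = 6.47e-05 by limma) was 1.70-fold.

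Of the period genes, Per2 (ENSMUSG00000055866, chr1:91415982-91459324) encodes a scaffold of the repressor complex and had the smallest adjusted p-value of the members. Its BALB/cN values were 11.48, 11.47, 11.50 and 11.40, and its C57BL/6N values 10.36, 10.32, 10.39 and 10.32. Corneas of 1 strain were almost alike, with 11.46 ± 0.044 against 10.35 ± 0.035 (SD, n = 4). Per2 was 1.11 higher in BALB/cN (SE 0.0483, adjusted p = 8.52e-07 by limma), or 2.16-fold.

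Per1 (ENSMUSG00000020893, chr11:69095217-69109960), a period gene that also responds quickly to glucocorticoids, was the most variable member. BALB/cN replicates 1 to 4 were at 13.31, 12.99, 12.36 and 12.40, and C57BL/6N replicates 1 to 4 at 12.06, 12.31, 11.91 and 11.65. The lowest BALB/cN cornea and the highest C57BL/6N cornea were next to each other, and within BALB/cN replicates 1 and 2 stood apart from replicates 3 and 4. The difference of 0.78 (SE 0.218) had an adjusted p of 0.0497 (limma) and was not called.

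Per3 (ENSMUSG00000028957, chr4:151003652-151044665), the third period gene, had values of 13.37, 13.45, 13.32 and 13.29 in BALB/cN and of 12.77, 12.75, 13.17 and 13.08 in C57BL/6N. The C57BL/6N corneas fell into a low pair, replicates 1 and 2, and a higher pair, replicates 3 and 4, which was nearer to BALB/cN. The difference was 0.41 (SE 0.097, adjusted p = 0.0236 by limma), which was not called.

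Of the cryptochromes, which give the repressor complex its strength, Cry2 was called and Cry1 was not. Cry2 (ENSMUSG00000068742, chr2:92403646-92434043) was at 11.49, 11.57, 11.41 and 11.41 in BALB/cN and at 10.86, 10.66, 10.89 and 10.94 in C57BL/6N. All BALB/cN corneas were higher, at 11.47 ± 0.075 against 10.84 ± 0.121 (SD, n = 4). The difference of 0.63 (SE 0.0706, adjusted p = 0.000368 by limma) was 1.55-fold, but the call was lost after centring of the corneas on their medians (adjusted p = 0.013). A noncoding gene on the other strand shares 295 bases, or 4.67%, of its exons, and had a mean rlog value of 1.38. Cry1 (ENSMUSG00000020038, chr10:85131700-85185064) had values of 8.28, 8.24, 8.24 and 8.08 in BALB/cN and of 8.34, 8.68, 8.42 and 8.43 in C57BL/6N. Its groups were separated by a narrow gap between BALB/cN replicate 1 and C57BL/6N replicate 1, and the difference of -0.25 (SE 0.089, adjusted p = 0.113 by limma) was not called.

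Nr1d1 (ENSMUSG00000020889, chr11:98767932-98775333), the receptor that represses Arntl, had the highest level of the 10 genes per length of exon. Its BALB/cN values were 14.64, 14.56, 14.80 and 14.76, and its C57BL/6N values 14.44, 14.48, 13.99 and 14.00. C57BL/6N replicates 3 and 4 stood apart from replicates 1 and 2 by about as much as the strains differed. The difference was 0.46 (SE 0.121, adjusted p = 0.0378 by limma) and was not called. Dbp (ENSMUSG00000059824, chr7:45705088-45710203), the output factor, was at 13.12, 13.15, 13.29 and 13.29 in BALB/cN against 12.21, 12.11, 12.04 and 12.01 in C57BL/6N. The BALB/cN corneas were all higher, with 13.21 ± 0.091 against 12.09 ± 0.089 (SD, n = 4). Dbp differed by 1.12 (SE 0.0632, adjusted p = 4.42e-06 by limma), or 2.18-fold.

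Both Nr1d1 and Dbp overlap a coding gene on the other strand. The libraries kept the strand, but the strand setting of the counting is not given in the sources used here. Thra shares 263 bases, or 8.55%, of the exons of Nr1d1 and differed by 0.07 (adjusted p = 0.543 by limma). Sphk2 shares 539 bases, or 18.0%, of the exons of Dbp and differed by -0.25 (adjusted p = 0.0946 by limma), in the direction opposite to Dbp.

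**Figure D2:**
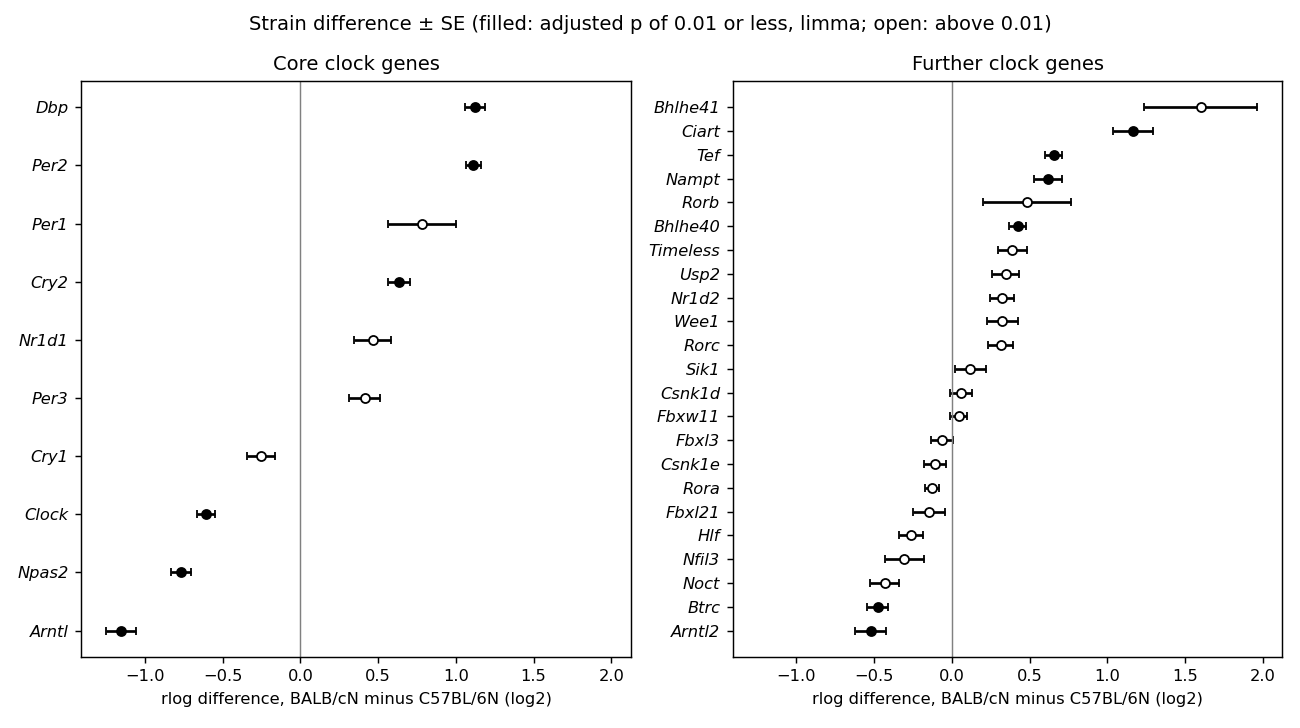
Difference in rlog value (log2), BALB/cN minus C57BL/6N, ± SE for the 10 core clock genes (left) and 23 further clock genes (right), with filled points for genes called by limma. Dbp at 1.12 and Arntl at -1.15 mark the ends of the core genes; Bhlhe41 at 1.6 has the widest error bar of the further genes.

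Levels of different genes were compared after the log2 of the exon length in kilobases had been taken from the rlog value. On this length-adjusted scale the order in BALB/cN was Nr1d1 (13.07), Dbp (11.63), Per1 (10.27), Per3 (10.09), Clock (9.31), Per2 (8.91), Cry2 (8.81), Arntl (7.31), Npas2 (6.93) and Cry1 (6.47). In C57BL/6N the order of these levels was Nr1d1 (12.60), Dbp (10.51), Clock (9.92), Per3 (9.68), Per1 (9.49), Arntl (8.46), Cry2 (8.18), Per2 (7.80), Npas2 (7.70) and Cry1 (6.73). The receptor and the output factor were thus at the top and Cry1 at the bottom in both strains, and Clock was above its relative Npas2 in both. Neighbours whose ranges over 4 corneas overlapped were Per1 with Per3 and Per2 with Cry2 in BALB/cN, and Clock with Per3, Per3 with Per1 and Per2 with Npas2 in C57BL/6N. Arntl was below Per2 in every BALB/cN cornea, from 7.07 to 7.53 against 8.85 to 8.95, and above it in every C57BL/6N cornea, from 8.41 to 8.55 against 7.77 to 7.84.

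**Figure D3:**
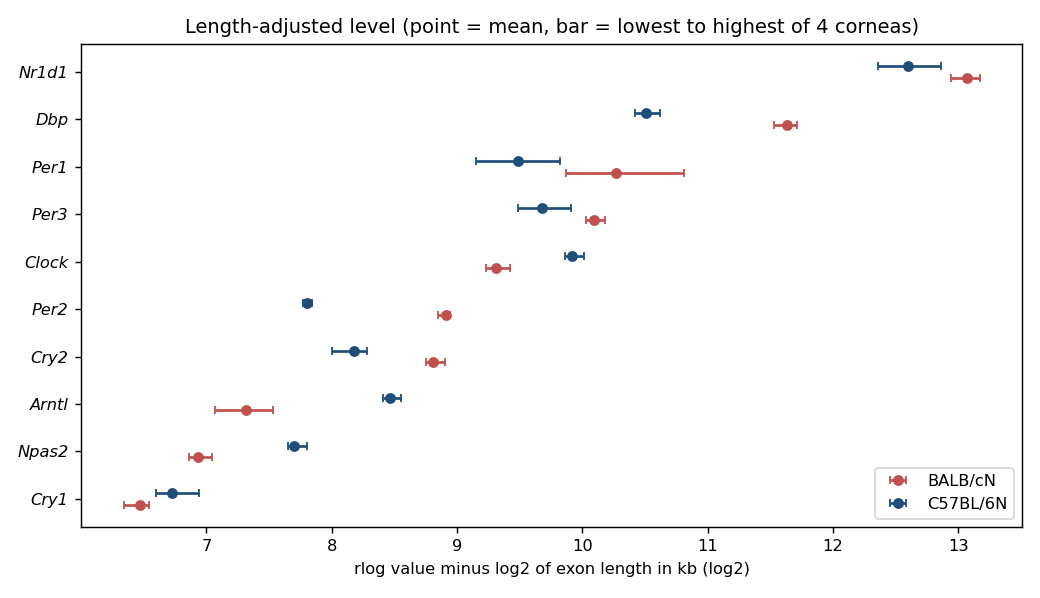
Length-adjusted level of each clock gene, the rlog value minus the log2 of the exon length in kilobases, with points for the mean and bars from the lowest to the highest of 4 corneas of BALB/cN (red) or C57BL/6N (blue). Nr1d1 and Dbp are at the top and Cry1 at the bottom in both strains, while Arntl lies to the right of Per2 in C57BL/6N and to its left in BALB/cN.

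Of 23 further genes of the clock, 4 were called higher and 2 lower in BALB/cN, against 2.83% and 2.91% of all genes, and 17 were not called. The strains did not overlap for 13 of the 23, against 18.3% of all genes, and the median size of the differences was 0.32. With the empirical null none of the 23 was called (limma), and 7 had an unadjusted p under 0.05, against 6.81% of all genes. Tef, a relative of Dbp that binds the same D-box, was at 12.98, 13.02, 12.98 and 12.94 in BALB/cN and at 12.24, 12.25, 12.41 and 12.41 in C57BL/6N. It was higher in all BALB/cN corneas, by 0.65 (SE 0.0554, adjusted p = 5.93e-05 by limma). Ciart, a repressor of the BMAL1 pair, had values of 8.93, 8.59, 8.87 and 8.59 against 7.77, 7.76, 7.47 and 7.32. The groups lay more than the spread of either strain apart, with a difference of 1.17 (SE 0.128, adjusted p = 0.000339 by limma).

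Bhlhe40, a repressor that competes at E-boxes, was at 13.32, 13.38, 13.50 and 13.40 in BALB/cN and at 12.95, 13.05, 12.90 and 13.01 in C57BL/6N. The difference of 0.42 (SE 0.0534, adjusted p = 0.000809 by limma) was not called after median centring (adjusted p = 0.0507). Nampt, the enzyme that limits the salvage of NAD, was at 10.98, 10.98, 10.72 and 11.12 against 10.40, 10.44, 10.21 and 10.27, a difference of 0.62 (SE 0.0902, adjusted p = 0.00186 by limma). Both genes were higher in every BALB/cN cornea.

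The called genes that were lower in BALB/cN were Btrc and Arntl2. Btrc, which marks PER proteins for destruction, was at 10.20, 10.07, 10.04 and 10.17 in BALB/cN and at 10.47, 10.61, 10.69 and 10.62 in C57BL/6N, a difference of -0.48 (SE 0.0661, adjusted p = 0.00142 by limma). Arntl2, a relative of Arntl, was at 8.74, 8.95, 9.06 and 9.02 against 9.44, 9.29, 9.65 and 9.47, a difference of -0.52 (SE 0.0969, adjusted p = 0.00724 by limma). Both lay lower in all BALB/cN corneas. The call of Arntl2 was the least firm of the 6, since it was lost when any single cornea other than C57BL/6N replicate 2 was left out, with adjusted p-values from 0.0137 to 0.0243. It was also lost after median centring (adjusted p = 0.0164, limma) and with no filter on the mean (0.0101).

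Bhlhe41, the sister gene of Bhlhe40, had the largest difference of the further genes, 1.6 (SE 0.366), yet was not called (adjusted p = 0.021, limma). Its values were 11.78, 11.31, 11.72 and 11.79 in BALB/cN and 10.87, 10.76, 9.40 and 9.19 in C57BL/6N, so that C57BL/6N replicates 3 and 4 stood far below replicates 1 and 2. The other uncalled genes with the largest differences were the nuclear receptor Rorb at 0.48 (adjusted p = 0.34, limma), the phosphatase gene Noct at -0.43 (0.0142), Timeless at 0.39 (0.0263), the deubiquitinase gene Usp2 at 0.35 (0.0291) and Nr1d2, the relative of Nr1d1, at 0.32 (0.0259).

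The spread between corneas of 1 strain differed widely among the members. It was set against 10372 genes whose rlog values averaged 8 or more, for which the median SD within strain was 0.105. Per2 had an SD of 0.0395, and only 1.76% of these genes had a smaller one. Per1 was at the other end, with an SD of 0.382 and 94.9% of genes below it. Nr1d1 (0.207, 88.6%), Per3 (0.160, 80.2%) and Arntl (0.151, 77.0%) also varied more than most genes, while Clock (0.0806, 27.9%), Npas2 (0.0788, 26.3%) and Dbp (0.0901, 36.5%) varied less. Cry1 (0.122, 62.2%) and Cry2 (0.101, 45.9%) lay near the middle.

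Whether the clock genes moved with or against Arntl from cornea to cornea was examined over the 8 corneas after each strain's mean had been taken away. None of the 9 correlations passed an exact two-sided permutation test within strain after adjustment over the 9 genes. The strongest was that of Per1 (Pearson r = 0.805, exact p = 0.0729, adjusted 0.328; Spearman rho = 0.905, exact p = 0.0521, adjusted 0.469), and r was 0.98 without the 2 corneas farthest from the median of Arntl, BALB/cN replicates 2 and 4. For Cry1, r was 0.578 (exact p = 0.0469, adjusted 0.328) and rho 0.571 (exact p = 0.104, adjusted 0.469), and r was 0.56 without these corneas. Dbp, which peaks opposite to Arntl in many tissues, had r = -0.476 (exact p = 0.311, adjusted 0.703) and rho = -0.452 (exact p = 0.333, adjusted 0.75), and r was -0.20 without them. Among the other 6 genes r lay between -0.34 and 0.422. With the replicate number taken as a block, r was 0.34 for Per1, 0.11 for Cry1 and -0.86 for Dbp, without a test. A common shift of the activators against the outputs between corneas of the same strain was therefore not detectable with 8 corneas.

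The balance of both arms was also put into 1 number per cornea, the mean rlog value of Dbp, Nr1d1 and Per3 minus that of Arntl, Clock and Npas2. In BALB/cN replicates 1 to 4 this index was 2.89, 2.80, 2.94 and 3.04, and in C57BL/6N it was 1.49, 1.38, 1.41 and 1.36. The strains were 1.51 apart, with 2.92 ± 0.10 against 1.41 ± 0.059 (SD, n = 4), which sums up the gene differences given above. Its correlation with the mean of stromal keratocyte genes over the 8 strain-centred corneas was 0.62, and Nr1d1 and Per3, both parts of it, varied in opposite directions with that mean, as described further on. Within strains, the genes that varied most like this index over the 8 corneas, out of 11243, were Slc9a9 (r = 0.989), Zc3h12b (r = 0.973), Clic4 (r = 0.970), Slc25a29 (r = 0.961) and Tmem45a (r = 0.949). Those that varied most against it were Sowahc (r = -0.989), Ppp2r5a (r = -0.975), Uevld (r = -0.974), Stim2 (r = -0.971) and Tollip (r = -0.969). These r are extremes over many genes in few corneas that share libraries and scaling, and are given as a description without a test.

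Per1 was set beside 10 genes induced by glucocorticoids, the stress hormones to which it responds. None of the 10 genes was called between strains (limma), while 3 had an unadjusted p under 0.05, against 23.7% of all genes, and the largest differences were those of Klf9 at 0.37 (adjusted p = 0.561) and Dusp1 at 0.36 (adjusted p = 0.0392). From cornea to cornea, however, Per1 followed several of them closely. Zbtb16, a zinc finger gene, was at 11.65, 11.02, 10.26 and 10.29 in BALB/cN and at 10.98, 11.37, 10.88 and 10.81 in C57BL/6N. Relative to the mean of its strain, it was highest where Per1 was, in BALB/cN replicates 1 and 2 and in C57BL/6N replicate 2.

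Over the 8 strain-centred corneas the correlation of Zbtb16 with Per1 was r = 0.964 (exact permutation p = 0.00174, adjusted 0.0174 over the 10 genes) and rho = 1 (exact p = 0.00174, adjusted 0.0174), 0.00174 being the smallest p these permutations can give. For Tsc22d3, a mediator of glucocorticoid action, r was 0.949 (exact p = 0.00347, adjusted 0.0174) and rho 0.952 (exact p = 0.00521, adjusted 0.026). For Fkbp5, a feedback regulator of the glucocorticoid receptor, r was 0.935 (exact p = 0.0174, adjusted 0.0579) and rho 0.905 (exact p = 0.033, adjusted 0.11). Without the 2 corneas farthest from the median of Per1, BALB/cN replicates 1 and 3, r was 0.95, 0.91 and 0.87. Among the other 7 genes r lay between -0.621 and 0.638 and none passed. These correlations were computed after the data had been seen.

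**Figure D4:**
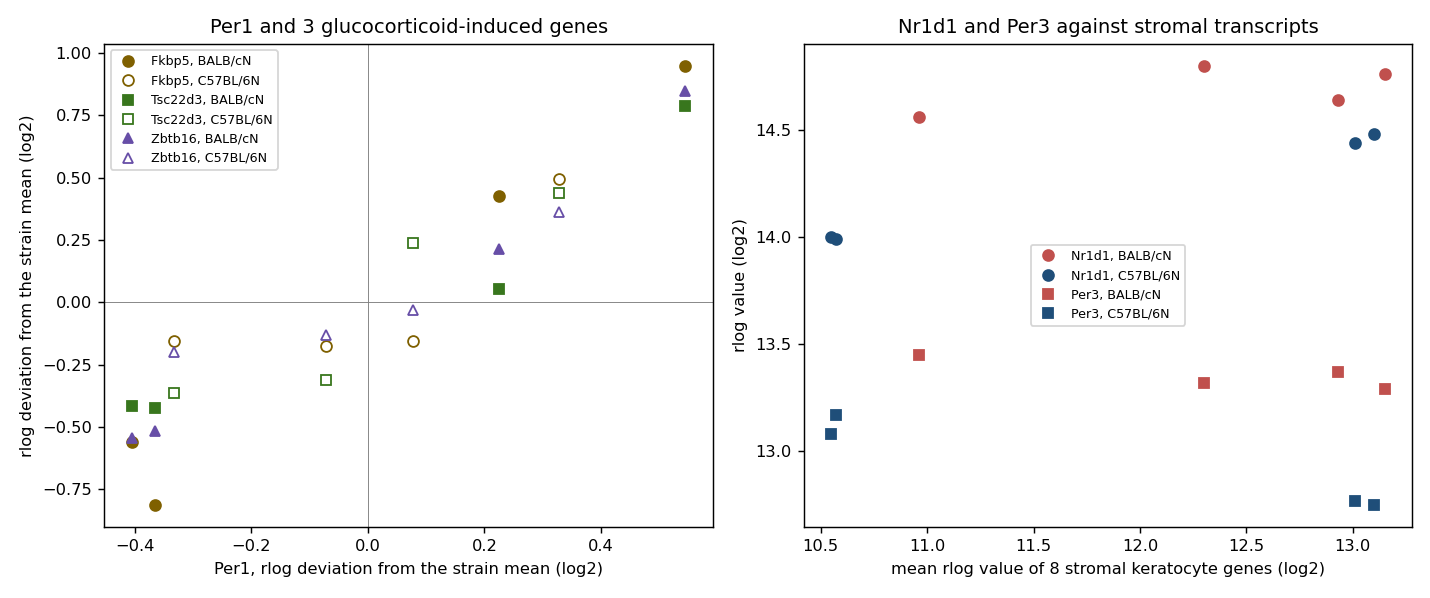
Left, deviation of the rlog value (log2) of Fkbp5, Tsc22d3 and Zbtb16 from the strain mean against that of Per1, with filled symbols for BALB/cN and open symbols for C57BL/6N. Right, rlog values of Nr1d1 (circles) and Per3 (squares) against the mean rlog value of 8 stromal keratocyte genes in each cornea, red for BALB/cN and blue for C57BL/6N; the C57BL/6N corneas form a pair near 10.6 and a pair near 13.

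The make-up of the samples was checked with marker genes of the cornea and of neighbouring tissue. Corneal epithelium defined all 8 samples, with Krt12, its keratin, between 19.60 and 19.85 and the mean of 6 epithelial genes between 16.91 and 17.15. Of 8 genes of stromal keratocytes 0 were called between strains (limma, 0 with an unadjusted p under 0.05), but most of them set 3 corneas apart. Kera, a keratocyte proteoglycan, ran from 9.85 to 14.90. Ptgds and Thy1 did not follow this pattern. Ptgds was lowest in BALB/cN replicate 3, at 6.42, and Thy1 lay between 2.95 and 3.49. The mean of all 8 genes, Ptgds and Thy1 included, was 12.93, 10.96, 12.30 and 13.15 in BALB/cN and 13.01, 13.10, 10.57 and 10.55 in C57BL/6N. In bulk samples, fewer cells of a type and less RNA per cell cannot be told apart.

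C57BL/6N replicates 3 and 4, the corneas with the least stromal transcripts beside BALB/cN replicate 2, were also those with the lower Nr1d1 and Bhlhe41 and the higher Per3. Over the 8 strain-centred corneas the correlation with the stromal mean was 0.90 for Nr1d1, -0.91 for Per3, -0.82 for Clock, -0.75 for Cry2, 0.63 for Dbp, 0.41 for Npas2, -0.31 for Per2, 0.27 for Per1, -0.17 for Arntl and 0.13 for Cry1, given as a description. Among the named further genes it was 0.93 for Bhlhe41, -0.94 for Tef and 0.75 for Ciart. The list means of corneal endothelium and macrophages were low in the same 3 corneas, though not every gene followed. The macrophage gene Cd68 was at 10.27, 10.34, 10.38 and 10.32 in BALB/cN and at 9.93, 10.12, 10.16 and 10.26 in C57BL/6N. Cd14, another of them, was at 6.36 in C57BL/6N replicate 4, between replicates 1 (6.45) and 2 (6.29). The mean of 3 genes of corneal endothelium was 12.71, 12.09, 12.68 and 12.66 in BALB/cN and 13.02, 12.97, 11.96 and 11.67 in C57BL/6N, and that of 6 macrophage genes was 6.95, 6.57, 7.06 and 7.15 against 6.90, 6.98, 6.33 and 6.42. The parts of these cell types in the values of the clock genes were not tested. With the stromal mean in the model, 8 of the 10 members and 2422 of all 25402 genes were called, against 6 and 1458 without it. The added members were Nr1d1 (0.39, adjusted p = 0.000901 by limma) and Per3 (0.48, adjusted p = 5.99e-05 by limma). Bhlhe41 was called as well (1.34, adjusted p = 6.53e-05 by limma). The 6 members called without the stromal mean were called with it too. With the epithelial mean in the model, the same 6 members and 1386 of all genes were called.

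Of 5 genes listed for conjunctiva, 4 were called lower in BALB/cN, against 2.91% of all genes. The mean of the 5 was 9.68 to 10.31 against 10.48 to 10.71, and their part in the clock genes was not tested. Among the 4, Muc4 was between 19.14 and 19.95, near the level of the epithelial keratin gene Krt12. The gene that went the other way, Muc5ac, a mucin of goblet cells, was between 5.21 and 7.80 in BALB/cN and between 4.35 and 4.51 in C57BL/6N. Lens genes had means of 4.75 to 7.66 in BALB/cN against 4.66 to 5.39 in C57BL/6N, and pigment cell genes 5.64 to 10.06 against 6.30 to 7.62, both highest in BALB/cN replicates 1 and 4. The 6 called members were called again when either of these replicates, or any other single cornea, was left out, as were 951 to 1162 of all genes. No fit left out both of these replicates together, so the part of lens and pigment cell transcripts in the clock genes was not tested. Lists for corneal endothelium, photoreceptors, macrophages, skeletal muscle and red blood cells had 0 called genes (limma), with 0, 1, 2, 0 and 0 genes at an unadjusted p under 0.05, and Hba-a1 was listed at 0 in every cornea.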

How the data were processed

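Paired reads were obtained from total RNA of 4 corneas per strain. The authors trimmed the reads, removed ribosomal and transfer RNA reads, aligned the rest to strain-specific versions of GRCm38 with TopHat2 2.1.1, converted the alignments back to reference positions, counted reads over the exons of Ensembl genes with HTSeq 0.7.1 and normalised them with DESeq2 1.30. What the authors deposited is a table of rlog values on a log2 scale, with decimal commas. Read counts were not used here, so the depth and the counting error behind each value are unknown. Each column was assigned to its cornea by the sample title, and 0 columns of values were left unused.

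From these values, genes whose rlog values averaged 0 or more were tested with limma 3.58.1 (R 4.3.3), letting the variance depend on the mean level, and adjusted over all genes tested by Benjamini-Hochberg. This takes the place of a count test, which the values do not allow. Single values were tested with exact two-sided permutations, enumerated in Python with numpy 2.4.6, with ranks from scipy 1.17.1. The rlog transformation shrinks differences of low genes, so folds tend to be too small. Exon lengths, positions and overlaps came from a GENCODE annotation of GRCm38, and promoter sequences from RefSeq. The procedure was tested on simulated data. Plots were made with Python 3.11.15 and matplotlib 3.10.9.

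The members, the gene lists and the tests were chosen with earlier results of these data known. All members were named. Of the further clock genes, those called and the 6 others with the largest differences were named, and of the glucocorticoid and immediate early lists the genes with the largest differences. Bhlhe41, Rorb, Noct, Timeless, Usp2 and Nr1d2 came in by that rule. Correlations of Per1 with the glucocorticoid list were added after the data were seen. A covariate made of 3 of its genes was also run but is not reported, since those genes were picked for following Per1. Alternatives were a variance without trend, a robust fit, the filter dropped or raised to log2 of 10, median centring, quantile normalization, p-values from an empirical null, a replicate block, stromal or epithelial means as covariates, leaving out each cornea, and an adjusted p-value of 0.05.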

Additional observations from a re-analysis of the deposited data

Results flagged for a closer look

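In 106 groups of 4 corneas, made of the clock genes, the glucocorticoid and immediate early genes, Thra and Sphk2 in each strain, 5 held a single cornea that stood apart by Dixon's ratio of gap to range, where chance gives about 1 in 20 groups, or 5.3. Bhlhe41 in BALB/cN had a ratio of 0.857, since replicate 2 was low at 11.31 against 11.72 for the next cornea. For Fkbp5 in C57BL/6N the ratio was 0.969, with replicate 2 at 11.65 and above the other 3. Sgk1 in BALB/cN had replicate 3 low at 12.77 against 12.86, a ratio of 0.881. Mt2 in BALB/cN had replicate 2 low at 12.15 against 12.50, a ratio of 0.909. Atf3 in BALB/cN had replicate 1 high at 6.05 against 4.69, a ratio of 0.845. No group of the 10 core clock genes was among the 5. Of these corneas, BALB/cN replicate 2 was also 1 of the 3 with few stromal transcripts, and C57BL/6N replicate 2 was the highest C57BL/6N cornea for Per1, Zbtb16 and Tsc22d3.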

How the results depend on the processing

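No member and no named further clock gene changed direction under any alternative. The count of 6 called members stayed at 6 with no variance trend, a robust fit, either filter, the epithelial covariate and each cornea left out, and was 5 with median centring, 7 with quantile normalization, 8 with the stromal covariate and 9 at an adjusted p of 0.05 (limma). With the replicate number as a block 5 members (Cry2 lost, adjusted p = 0.0121), 3 further genes and 554 of all genes were called. Over all genes, the deviations of same-numbered corneas from their strain means correlated at 0.305, -0.53, -0.203 and -0.454. These values cannot show whether equal numbers shared a time of collection or a processing batch. With the empirical null 0 members, 0 further genes and 0 of all genes were called, the smallest adjusted p of a member being 0.183. Over all genes, 958 were called with median centring (413 higher, 545 lower, against 718 and 740), 2422 with the stromal covariate, 2842 at an adjusted p of 0.05, and 951 to 1162 with 1 cornea left out. That count was 1496 with no variance trend, 1609 with a robust fit, 1443 with quantile normalization and 1386 with the epithelial covariate. It was 1298 of 31314 with no filter and 1557 of 18762 with the raised filter. Of the further genes, 11 were called with the stromal covariate and 12 at an adjusted p of 0.05. The correlation with Arntl kept its sign for Per1 and Cry1 under every alternative and turned for the other 7 members under at least 1. Without the 2 corneas farthest from its median, r was -0.81 for Clock, -0.30 for Per2, -0.46 for Per3, -0.41 for Cry2 and 0.39 for Nr1d1. With median centring it was 0.26 for Npas2 and 0.02 for Dbp, and with the stromal covariate -0.30 for Per3 and 0.19 for Nr1d1. With the replicate block r fell to 0.34 for Per1 and 0.11 for Cry1, so only their signs were kept. For the others it was 0.82 for Clock, -0.79 for Npas2, 0.97 for Per2, 0.87 for Per3, 0.84 for Cry2, -0.90 for Nr1d1 and -0.86 for Dbp. No p was computed with this block. With 1 cornea left out r ran from -0.24 to 0.56 for Clock, -0.37 to 0.59 for Per2, -0.21 to 0.24 for Per3, -0.13 to 0.81 for Cry2 and -0.29 to 0.19 for Nr1d1. The correlations of Per1 with Zbtb16 and Tsc22d3 kept an r of at least 0.91 with 1 cornea left out, where the smallest adjusted p seen was 0.0694 (exact permutation). With fewer corneas the permutations allow fewer orders, so the p-values cannot fall as low. They do not by themselves show a weaker correlation. The cause was not tested for any of these changes. The unknown depth and the unknown time of collection limit all comparisons.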

Other observations

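Genes of the immediate early response, which rise within minutes of handling or light in many tissues, were set beside the clock genes. None of 8 such genes was called between strains (limma), and 2 had an unadjusted p under 0.05, against 23.7% of all genes. The largest differences were those of Atf3, a stress-induced factor, at 0.33 (adjusted p = 0.572) and Junb, a subunit of AP-1, at 0.32 (adjusted p = 0.0304). The difference of Atf3 rested on 1 cornea, and was -0.04 without BALB/cN replicate 1. Atf3 was at 6.05 in BALB/cN replicate 1, the cornea with the highest Per1, and between 4.44 and 4.85 in the other 7 corneas. Junb was at 13.24, 13.30, 13.44 and 13.39 in BALB/cN and at 12.88, 12.89, 13.18 and 13.13 in C57BL/6N, with every BALB/cN cornea above every C57BL/6N cornea. Hlf, the relative of Dbp and Tef, was at 14.84, 14.93, 14.84 and 14.70 in BALB/cN and at 14.92, 15.01, 15.20 and 15.22 in C57BL/6N, and its groups overlapped (difference -0.27, adjusted p = 0.059, limma). Hlf was named after its values were seen.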
